A study of Mus musculus with 384 samples.

Results

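The interferon-induced transmembrane genes Ifitm1, Ifitm2, Ifitm3 and Ifitm6 were followed in single granulocyte-monocyte progenitors (GMPs) of mice in which the fusion oncogene BCR-ABL had been switched on. These 4 genes are 4 of 7 Ifitm genes and of 46078 gene rows in the deposited count tables. They were chosen by their level, share of positive cells and relation to stem, fate and interferon genes in these same cells, so every comparison of those quantities below is a description and carries no p-value. The values come from 323 wells of 4 sets with 96 wells each, those with at least 50000 reads on genes and at least 1000 genes with a read.

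The mice were of the C57Bl/6 strain. The BCR-ABL sets came from Scl-tTA::TRE-BCR/ABL animals, in which the Scl promoter drives the tetracycline transactivator and the transactivator drives BCR-ABL when doxycycline is absent. Animals were bred on drinking water with 20 mg per L doxycycline, which was withdrawn at 5 weeks of age, and marrow was taken 5 to 6 weeks later. BCR-ABL is the kinase of chronic myeloid leukaemia, and the model develops a similar myeloproliferative disease. Control mice were analysed at the same time, and the labels do not give their genotype or doxycycline schedule. GMPs, the marrow progenitors of neutrophils and monocytes, were sorted by CD34, c-Kit and Fc gamma receptor on their surface and by the absence of Sca-1 and lineage markers, 1 per well, and read by full-length SMART-seq2. The labels number the BCR-ABL sets 1, 2 and 4, and triplets of values below follow that order, with the lone control set after them. Which animals, or how many, stand behind a set is not stated.

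IFITM proteins are small palmitoylated membrane proteins of the CD225 family. IFITM1 resides mainly at the cell surface, whereas IFITM2 and IFITM3 cycle to endosomes, where they stiffen membranes and block the fusion of incoming viruses. Interferons raise several of them in most cell types, but stem cells keep high levels without interferon, and in B cells IFITM3 also takes part in signalling through phosphoinositide kinase. The 4 members sit in 1 cluster on mouse chromosome 7, next to the bone-specific member Ifitm5.

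In GENCODE vM21 (mm10), Ifitm2 lies on chromosome 7 from 140954837 to 140955987 on the minus strand, and Ifitm1 follows from 140967221 to 140969825 on the plus strand. Ifitm3 lies from 141009586 to 141010770 and Ifitm6 from 141015699 to 141017924, both on the minus strand. All 4 are protein-coding genes, with 2 exons in Ifitm2 and Ifitm3 and 2 to 3 exons, depending on the transcript, in Ifitm1 and Ifitm6. Their proteins, by the length of the longest coding sequence, have 106 residues (Ifitm1), 144 (Ifitm2), 137 (Ifitm3) and 124 (Ifitm6).

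The promoters are shown because interferon acts on such genes through a short element at the start of transcription, and the windows used here differ in it. All 4 members matched the RefSeq promoter table of the GRCm38.p6 build, which gives 250 bases before the start of transcription and 50 after it. Each window is written 5′ to 3′ on the gene's strand, the start site is position 251, and capitals mark the core of the interferon-stimulated response element, GAAANNGAAA, on either strand. The windows lie at chr7:140967826-140968125 (Ifitm1, plus), chr7:140955912-140956211 (Ifitm2, minus), chr7:141010695-141010994 (Ifitm3, minus) and chr7:141016843-141017142 (Ifitm6, minus).
Ifitm1: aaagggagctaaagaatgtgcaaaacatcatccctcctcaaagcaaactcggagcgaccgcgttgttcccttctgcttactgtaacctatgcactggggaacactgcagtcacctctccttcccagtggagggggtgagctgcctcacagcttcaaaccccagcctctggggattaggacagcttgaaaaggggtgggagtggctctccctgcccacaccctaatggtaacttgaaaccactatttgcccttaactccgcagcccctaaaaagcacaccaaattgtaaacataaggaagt
Ifitm2: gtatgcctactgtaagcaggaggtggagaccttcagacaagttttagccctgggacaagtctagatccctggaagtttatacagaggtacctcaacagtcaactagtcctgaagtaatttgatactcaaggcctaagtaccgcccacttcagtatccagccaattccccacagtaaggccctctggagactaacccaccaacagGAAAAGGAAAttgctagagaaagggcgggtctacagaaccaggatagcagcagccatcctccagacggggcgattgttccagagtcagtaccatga
Ifitm3: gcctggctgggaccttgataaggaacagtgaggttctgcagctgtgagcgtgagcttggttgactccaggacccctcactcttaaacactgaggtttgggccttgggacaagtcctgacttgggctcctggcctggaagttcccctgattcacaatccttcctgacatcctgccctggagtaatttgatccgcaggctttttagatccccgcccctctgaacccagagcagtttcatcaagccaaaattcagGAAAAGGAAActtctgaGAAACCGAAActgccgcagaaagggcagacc
Ifitm6: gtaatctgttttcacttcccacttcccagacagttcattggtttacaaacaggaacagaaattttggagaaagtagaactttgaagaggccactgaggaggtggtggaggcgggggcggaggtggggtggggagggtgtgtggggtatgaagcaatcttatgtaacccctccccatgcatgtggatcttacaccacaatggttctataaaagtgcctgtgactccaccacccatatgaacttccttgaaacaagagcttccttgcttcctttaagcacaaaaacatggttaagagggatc

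The element core was found once in Ifitm2, at position 205, and at positions 253 and 270 in Ifitm3. The windows of Ifitm1 and Ifitm6 did not hold it. Both of these windows lie inside the gene as annotated in GENCODE vM21, whereas those of Ifitm2 and Ifitm3 span its 5′ end. Sequence at the outermost annotated 5′ ends of Ifitm1 and Ifitm6 was not examined. Among 32851 promoter windows of the same length, 3.44% held it. The STAT palindrome TTCNNNGAA was found in Ifitm3 at position 264, where it overlaps the second element core, and in Ifitm6 at position 241, against 8.30% of all windows. The C/EBP core TTGCNNAA was found in none of the 4 windows and in 10.8% of all windows. These matches describe letters in these windows only.

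The members are close copies in their coding sequence, which bears on how reads are assigned. Coding identity was 81.9% between Ifitm1 and Ifitm3, 81.6% between Ifitm1 and Ifitm2 and 80.8% between Ifitm2 and Ifitm3, whereas Ifitm6 had 65.9% to 68.8% with the others. The longest stretch that Ifitm1 and Ifitm3 share without a mismatch has 64 bases and begins at base 96 of the Ifitm1 and base 162 of the Ifitm3 coding sequence.
Shared by Ifitm1 and Ifitm3: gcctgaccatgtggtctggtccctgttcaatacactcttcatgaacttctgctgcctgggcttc

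Of all 50-base windows in the transcripts of a member, 1.42% of those of Ifitm1, 3.30% of Ifitm2, 5.56% of Ifitm3 and 0% of Ifitm6 also occur in another member. With all genes counted, the shares were 5.02%, 48.5%, 10.02% and 0%. The large share of Ifitm2 comes mostly from Gm45717, an annotated gene that overlaps it and has no row in these tables, and from processed pseudogenes. The pseudogene Gm7676 on chromosome 8 shares windows with Ifitm1 and Ifitm3 and was counted at 13.7, 15.7 and 8.53 CPM across the BCR-ABL sets and at 4.88 CPM in the control set. CPM is reads per 1e6 reads on genes. How many of these reads belong to Ifitm1 or Ifitm3 was not tested. The members' levels are uncertain by an amount that was not measured. Reads from overlapping or antisense genes cannot be told apart, since the strand setting of the counting is not given.

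Kept cells numbered 76, 61 and 92 in the BCR-ABL sets, against 94 in the control set, and their sums held 121.4 to 141.0 times 1e6 reads on genes. The sets stand apart in more than the treatment. Xist, the transcript of the inactive X chromosome, reached 5 CPM in nearly all kept cells of replicate 1 and of the control (75 of 76 and 94 of 94) and in few or none of replicates 2 and 4 (0 of 61 and 3 of 92). Median reads per cell were between 1385349 and 2084608 in the BCR-ABL sets, against 1200639 in the control set. Among genes of the sorted population, Mpo, the myeloperoxidase of early granulocytic cells, stood between 28649 and 31626 CPM, and Ly6a, which encodes Sca-1, at or under 3.46 CPM in every set. Summed over 8 markers each, mature neutrophil genes stood at 356 to 528 CPM across the BCR-ABL sets, against 154 in the control. S100a8 alone made up 338 to 521 and 143 CPM of these sums. Of the 8 neutrophil markers, 2 lay above the control in all 3 BCR-ABL sets, beside 23.2% of all genes tested, and 4 were under 1 CPM in every set. Monocyte genes stood at 4594 to 5440 and 6542 CPM, of which Ly6c2 alone made up 3896 to 4526 and 5073 CPM. Of the 8 monocyte markers, 7 lay below the control in all 3 BCR-ABL sets, beside 27.8% of all genes tested. The part of these differences in the results below was not tested. The fit of 3 BCR-ABL sums against 1 control sum (edgeR, quasi-likelihood F test) had 2 residual degrees of freedom, all from BCR-ABL sets, and of 20324 genes tested 0% passed an adjusted p of 0.05. At an unadjusted p under 0.05, 3.79% of genes were higher and 3.39% lower. DESeq2 called 557 genes on the same sums.

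Ifitm1, the cell-surface member, stood at 174, 200 and 109 CPM in the summed cells of the BCR-ABL sets and at 29.9 CPM in the control set. All 3 BCR-ABL sets lay above the control, as they did for 23.2% of all genes tested. The BCR-ABL mean was 161 ± 46.7 CPM (SD, n = 3), 5.39 times the control, and the fitted log2 fold change was 2.45 (SE 0.45). With every cell thinned to the same 674952 reads the log2 fold change was 1.97. Deep cells carried more Ifitm1, with a rank correlation of 0.41, 0.31 and 0.30 between Ifitm1 and the reads of a cell in the BCR-ABL sets, against 0.10 in the control set.

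The mean hides a wide spread between cells. The median cell had 45.3, 54.4 and 3.35 CPM of Ifitm1 in the BCR-ABL sets, against 7.32 in the control set, so the median of replicate 4 lay below the control although its sum lay above. The tenth of cells with the most Ifitm1 held 53.4%, 55.2% and 71.96% of its reads in the BCR-ABL sets, against 56.3% in the control. Cells at or over 100 CPM made up 31.6%, 40.98% and 21.7% of the BCR-ABL sets and 7.45% of the control set. In the control, 7 of 94 cells reached that level, and the highest of them had 966 CPM.

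Ifitm2, an endosomal member, was the steady one. It stood at 293, 297 and 276 CPM across the BCR-ABL sets and at 301 in the control set, with a log2 fold change of -0.04 (SE 0.14). All 3 sets lay just below the control, as 27.8% of all genes tested lay below it in all 3 sets. The coefficient of variation over cells was 0.40 to 0.63, against 1.69 to 3.01 for Ifitm1. Every thinned cell of every set held at least 10 reads of it.

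Ifitm3, the endosomal member best known for restricting influenza virus, stood at 154, 161 and 71.5 CPM across the BCR-ABL sets and at 163 in the control set. All 3 sets lay below the control, as they did for 27.8% of all genes tested, but replicates 1 and 2 did so by less than the spread between sets. The log2 fold change was -0.32 (SE 0.51), and -0.02 without replicate 4. The median cell had 70.8, 99.5 and 25.3 CPM across the BCR-ABL sets, against 126 in the control set.

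Ifitm6, the most distant of the 4 in sequence, was sparse, at 5.37, 5.40 and 1.59 CPM across the BCR-ABL sets and 11.5 CPM in the control set. All 3 BCR-ABL sets lay below the control, as they did for 27.8% of all genes tested, and the log2 fold change was -1.46 (SE 0.75). The median cell of every set had 0 reads. In replicate 4 the tenth of cells with the most Ifitm6 held all of its reads.

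Per kb of exon, which allows the genes to be ordered by level, Ifitm2 led in every set. In the control set the order was Ifitm2 (459 CPM per kb), Ifitm3 (241), Ifitm1 (27.3) and Ifitm6 (12.7). In the BCR-ABL sets the mean levels were 440 CPM per kb for Ifitm2, 190 for Ifitm3, 147 for Ifitm1 and 4.55 for Ifitm6. Ifitm3 stayed above Ifitm1 in each set, but their means differed by less than the spread (SD) of Ifitm3 between BCR-ABL sets, whereas in the control they stood far apart. Ifitm1 exceeded Ifitm3 per kb in 23.1%, 31.5% and 27.2% of BCR-ABL cells and in 5.56% of control cells.

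**Figure D1:**
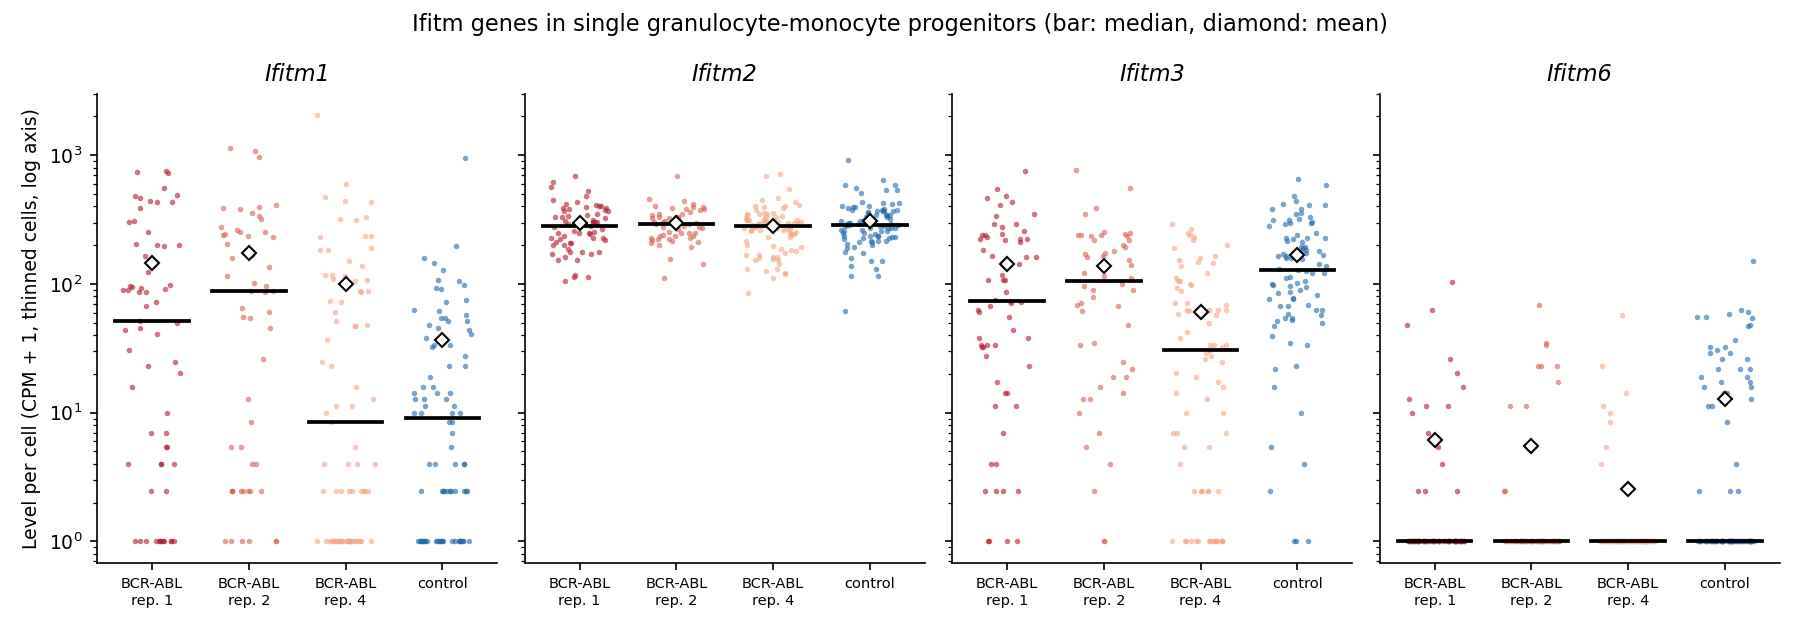
Level of each Ifitm gene in each thinned cell (CPM + 1, log axis) for 65, 54, 81 and 90 cells of the BCR-ABL sets and the control set, with a bar at the median and a diamond at the mean. Ifitm1 and Ifitm3 spread over the whole axis, Ifitm2 stays near 300 CPM in all sets, and most cells lie at the bottom for Ifitm6.

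A cell was called positive at 10 or more reads after thinning, which left 290 cells. Ifitm1 was positive in 64.6%, 62.96% and 44.4% of BCR-ABL cells and in 36.7% of control cells. The exact 95% intervals over cells were 51.8% to 76.1%, 48.7% to 75.7% and 33.4% to 55.9% in replicates 1, 2 and 4 and 26.8% to 47.5% in the control. Cells are not replicates of a condition, so these intervals do not compare BCR-ABL with control. Ifitm3 was positive in 76.9%, 81.5% and 61.7% of BCR-ABL cells and 92.2% of control cells. Ifitm6 was positive in 9.23%, 12.96% and 2.47% of BCR-ABL cells and 28.9% of control cells. At this limit the shares of Ifitm1-positive cells lay above the control in all 3 BCR-ABL sets and those of Ifitm3 and Ifitm6 below it. Replicate 4 was not above the control at every limit: at a limit of 1 thinned read the shares were 67.9% there and 72.2% in the control, and at 10 reads without thinning they were 46.7% and 48.9%. Ifitm3 stood closer to the control at 1 thinned read, at 93.8%, 96.3% and 81.5% against 96.7%. At 1 read without thinning, replicate 2 lay above the control for Ifitm3 (98.4% against 96.8%). At 50 thinned reads Ifitm6 was at 1.54%, 0% and 0% against 1.11%. Intervals cover counting error only, and SMART-seq2 reads carry no molecular identifiers.

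Most Ifitm1-positive cells also held Ifitm3. Cells with both made up 61.5%, 59.3% and 42.0% of the BCR-ABL sets and 35.6% of the control set. Cells with Ifitm3 but not Ifitm1 were the most common kind in the control, at 56.7%, and made up 15.4%, 22.2% and 19.8% of the BCR-ABL sets. Cells with Ifitm1 alone were rare, at 1.11% to 3.70% in all 4 sets. Among Ifitm3-positive cells, 80%, 72.7% and 68% of BCR-ABL cells held Ifitm1, against 38.6% of control cells, and their median Ifitm1 level was 89.6, 107 and 79.3 CPM against 8.89. Cells with neither gene made up 20.0%, 14.8% and 35.8% of the BCR-ABL sets and 6.67% of the control set.

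Over single cells Ifitm1 and Ifitm3 varied together in the BCR-ABL sets. Spearman's rho was 0.82, 0.66 and 0.73 over 65, 54 and 81 cells of replicates 1, 2 and 4 and 0.17 over 90 control cells. The cells of a set share their source and a range of depths, so these values describe the sets. Only 36.7% of control cells held at least 10 reads of Ifitm1, so its ranks there rest on few reads in most cells. The sets also differ in their mix of fate states, given below. The part of either in the lower control rho was not tested. By the mean of the 4 sets, none of 8536 widely detected protein-coding genes stood closer to Ifitm1 than Ifitm3 did. Both genes were also higher in cells with more genes detected, with rho of 0.37 to 0.68 in the BCR-ABL sets and -0.07 to 0.06 in the control. After the ranks were corrected for the number of genes detected, rho between Ifitm1 and Ifitm3 was 0.74, 0.48 and 0.69 in the BCR-ABL sets, against 0.18 in the control. Ifitm2 was tied to Ifitm1 less closely, at 0.45, 0.16 and 0.22 against -0.07, and Ifitm6 at 0.25, 0.27 and 0.30 against -0.02.

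**Figure D2:**
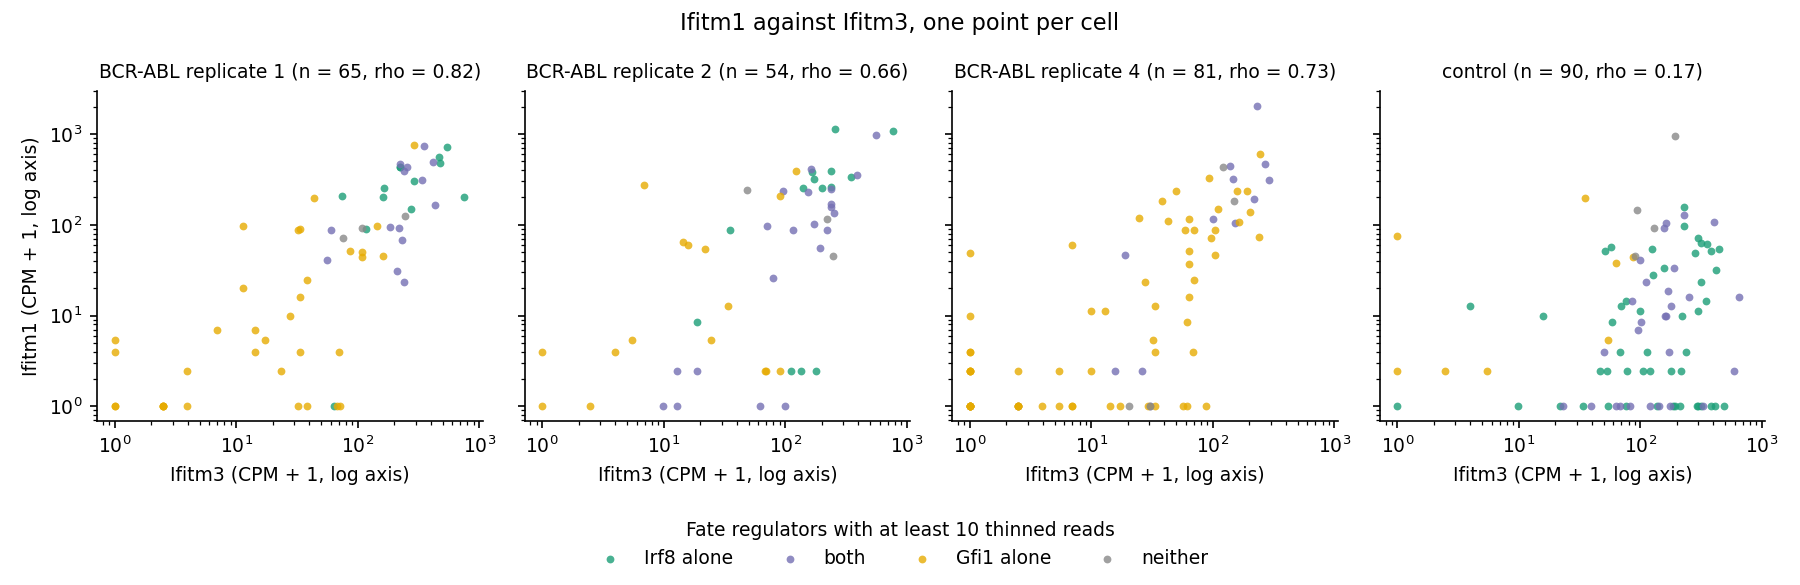
Ifitm1 against Ifitm3 in each thinned cell (CPM + 1, log axes), 1 panel per set, coloured by whether Irf8, Gfi1, both or neither had at least 10 thinned reads. In the BCR-ABL sets the points follow a diagonal (rho 0.82, 0.66 and 0.73), whereas control cells lie at high Ifitm3 with Ifitm1 anywhere from 0 upward (rho 0.17).

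The relation to fate was read from Irf8, the regulator of monocyte and dendritic fate, and Gfi1, the repressor that directs neutrophil fate. The sets differed in both. Irf8 stood at 258, 421 and 62.4 CPM across the BCR-ABL sets, against 990 in the control, and Gfi1 at 103, 83.5 and 160 CPM against 41.5. Cells with Irf8 alone (at least 10 thinned reads of it and fewer of Gfi1) made up 20.0%, 25.9% and 0% of the BCR-ABL sets and 55.6% of the control. Cells with Gfi1 alone made up 53.8%, 29.6% and 77.8% of the BCR-ABL sets and 8.89% of the control.

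Ifitm1 levels of BCR-ABL and control cells lay far apart in cells with Irf8. In cells with Irf8 alone, Ifitm1 stood at 310 and 322 CPM in BCR-ABL replicates 1 (13 cells) and 2 (14 cells) and at 19.7 CPM in the control (50 cells), a mean log2 ratio of 3.93 on the CPM + 1 scale. In cells with both regulators it stood at 244, 160 and 290 CPM across the BCR-ABL sets (14, 21 and 14 cells) and at 22.7 CPM in the control (28 cells), a mean log2 ratio of 3.25 with an SD of 0.44. Every BCR-ABL set with enough cells lay above the control in both states. The 290 CPM of replicate 4 rests on 1 cell at 2058 CPM and is 154 CPM without it. With the highest cell of each set left out, which was tried after the data were seen, the mean log2 ratios were 3.901 with Irf8 alone and 2.98 with both regulators, and all of these sets still lay above the control. In cells with Gfi1 alone Ifitm1 was at 45.9, 67.04 and 52.7 CPM across the BCR-ABL sets (35, 16 and 63 cells). The control held 8 such cells, under the minimum of 10 cells for a value. At a limit of 30 reads in place of 10, the control had 10 cells with Gfi1 alone at 46.5 CPM, and the BCR-ABL sets had 69.1, 55.8 and 58.6 CPM. Whether the ratio differs between states was not tested.

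Ifitm3 followed fate in the same direction in both conditions. In cells with Irf8 alone it stood at 294 and 213 CPM in BCR-ABL replicates 1 and 2 and at 185 CPM in the control. In cells with both regulators it stood at 246, 160 and 116 CPM against 180. In cells with Gfi1 alone it stood at 43.1, 34.6 and 46.2 CPM across the BCR-ABL sets, below the other states of the same set, and at a limit of 30 reads it stood at 71.4 CPM in the control. With Irf8 alone both BCR-ABL sets lay above the control, and with both regulators 1 of 3 did. Without the highest cell of each set, replicate 2 with Irf8 alone stood at 171 CPM against 179 in the control, so only replicate 1 stayed above it.

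Ifitm6 was highest in control cells with Irf8 alone, at 17.3 CPM, against 4.33 and 3.07 CPM in the same cells of BCR-ABL replicates 1 and 2. In cells with both regulators the sets stood closer, at 6.98, 9.52 and 7.30 CPM against 6.67. In cells with Gfi1 alone it stood at 2.12, 0.0926 and 0.376 CPM across the BCR-ABL sets. Ifitm2 stayed between 266 and 323 CPM in every state and set with a value.

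**Figure D3:**
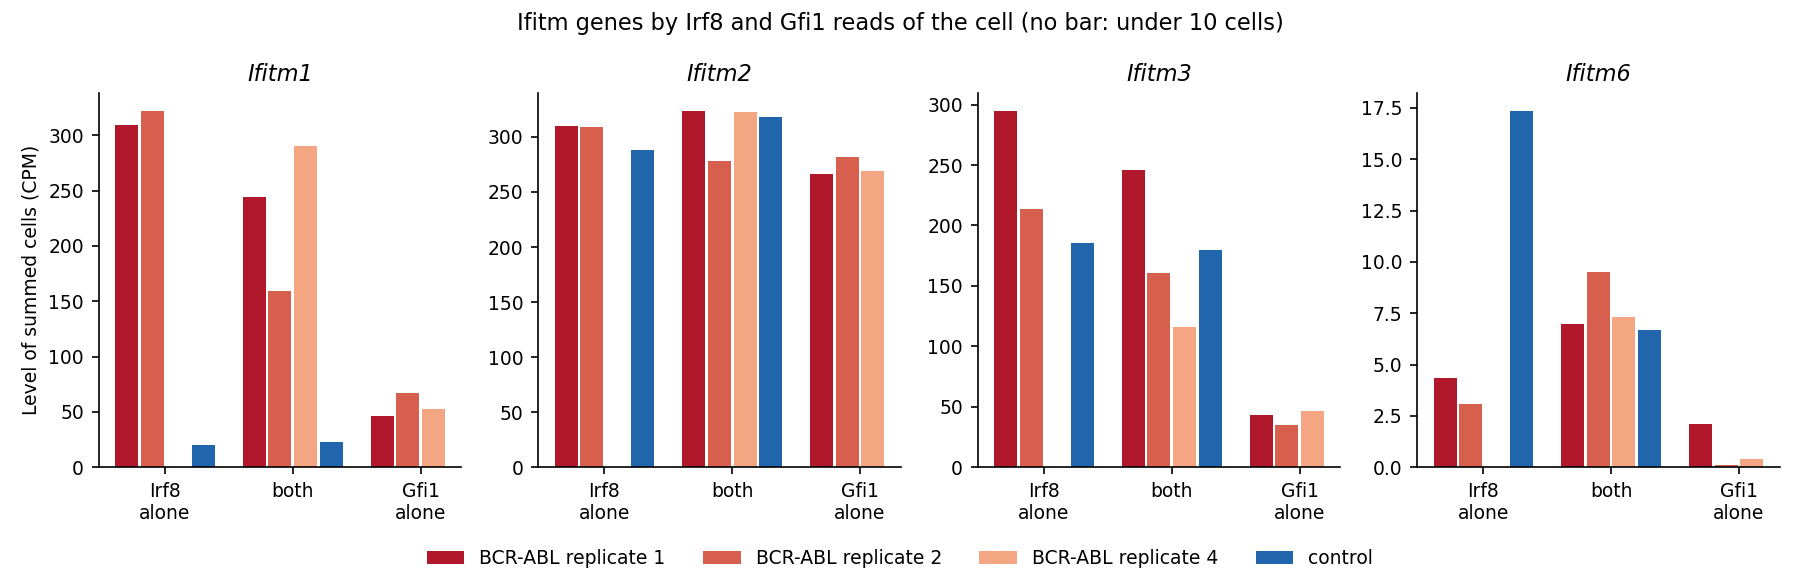
Level of each Ifitm gene in the summed thinned cells of a fate state (CPM, linear axis from 0, a separate scale per gene), by set, with no bar where a set held under 10 cells of the state. Ifitm1 bars of the BCR-ABL sets reach 160 to 322 CPM in the states with Irf8, where the control stays at 19.7 and 22.7 CPM, and Ifitm2 bars are nearly level.

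Among single genes, the closest to Ifitm1 after Ifitm3 were Prdx1, a peroxide-removing enzyme (rho 0.69, 0.75 and 0.53 in the BCR-ABL sets, against 0.11 in the control), Fabp5, a fatty acid binding protein (0.68, 0.65, 0.68 and 0.04), and S100a10, the annexin A2 partner (0.65, 0.55, 0.60 and 0.23). They were followed by the lactate dehydrogenase Ldha, the nucleolar protein Npm1, Emilin2, the nucleoside kinase Nme2 and the translation factor Eif5a, with means of 0.47 to 0.49 over the 4 sets. At the other end stood Elane, the elastase of neutrophil granules, at -0.73, -0.72 and -0.73 in the BCR-ABL sets, against -0.34 in the control, and the lectin Clec4a2 at -0.74, -0.73, -0.74 and -0.29. Over all 8536 genes the median mean rho was 0.06, and 90% of them lay between -0.15 and 0.25.

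The genes most like Ifitm3 were Fabp5 (mean rho 0.59), Emb, Slc25a5, Ass1 and Ldha, and those least like it were Nkg7 (-0.59), Cd63 and Elane. Ifitm2 stood nearest to Cox8a (0.43), a subunit of cytochrome c oxidase, and to Rps27l, Hint1 and Snrpg. Ifitm6 stood nearest to Milr1 (0.35), Emb, Ms4a6c and Irf8 itself (0.30). Fabp5, Ldha, Prdx1 and S100a10 were among the 8 closest genes of both Ifitm1 and Ifitm3.

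Whole gene lists placed the members against the neutrophil branch. The neutrophil list (19 genes scored) ran against Ifitm1 at -0.60, -0.56 and -0.54 in the BCR-ABL sets, against -0.26 in the control, and against Ifitm3 at -0.66, -0.39, -0.44 and -0.45. Of its 19 genes, 12 had a negative rho with Ifitm1 in all 4 sets, against 805 of all 11956 genes compared, and among them were S100a8, a subunit of calprotectin (-0.52, -0.57, -0.54 and -0.27), and Cebpe, the late granulocytic regulator (-0.58, -0.47, -0.46 and -0.08). Lcn2, a secondary granule protein, went the other way in the BCR-ABL sets (0.40, 0.46 and 0.49, against -0.19 in the control). The monocyte list separated the members. Its rho with Ifitm3 was 0.53, 0.42, 0.10 and 0.51 and with Ifitm6 0.26, 0.30, 0.21 and 0.43, whereas with Ifitm1 it went from 0.42 in replicate 1 through 0.11 and -0.03 to -0.23 in the control. Irf8 alone had a rho with Ifitm1 of 0.52, 0.29 and 0.12 in the BCR-ABL sets, against -0.18 in the control. The genes of this list went opposite ways. Ly6c2 stood at -0.37, -0.59, -0.58 and -0.55, whereas Ccr2 stood at 0.57, 0.50, 0.28 and -0.11 and Ms4a6c at 0.55, 0.38, 0.27 and -0.13. Of its 13 scored genes, 0 had a positive rho with Ifitm1 in all 4 sets and 1 a negative one, beside 2717 and 805 of all 11956.

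The stem and early progenitor list (23 genes scored) ran with Ifitm1 at 0.18, 0.46 and 0.52 in the BCR-ABL sets, against 0.42 in the control. Of its genes, 14 of 23 (60.9%) had a positive rho with Ifitm1 in all 4 sets, against 22.7% of all 11956 genes compared. Cd34, the surface sialomucin used in the sort, stood at 0.46, 0.43, 0.54 and 0.26, Egfl7, a secreted vascular protein, at 0.17, 0.48, 0.32 and 0.33, and the cytokine receptor Flt3 at 0.38, 0.32, 0.29 and 0.10. Meis1, a homeobox factor of stem cells, was lower, at 0.18, 0.23, 0.29 and 0.20. Prom1, which encodes the surface protein CD133, had the opposite sign, at -0.44, -0.46, -0.34 and -0.06. With Ifitm3 the list stood at 0.15, 0.17 and 0.44 against -0.09, and with Ifitm6 between -0.15 and 0.24.

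The interferon-stimulated list was not unrelated to Ifitm1. Its score (31 genes) had a rho of 0.15, 0.40 and 0.34 in the BCR-ABL sets, against 0.29 in the control, positive in all 4 sets. The members were chosen in part by their relation to stem, fate and interferon genes, so these values describe that relation and do not test it. Gene by gene the relation was near that of any gene: the median rho was 0.07 against 0.05 for all genes, and 8 of 31 (25.8%) were positive in all 4 sets against 22.7%. The immunoproteasome subunit Psmb8 led the list at 0.62, 0.39, 0.52 and 0.05. Irf9, an interferon regulatory factor, stood at 0.07, 0.23, 0.06 and -0.01. After correction for the number of genes detected the list's rho was -0.08, 0.23, 0.18 and 0.29. The same correction gave 0.10, 0.44, 0.42 and 0.42 for the stem list and -0.59, -0.57, -0.49 and -0.27 for the neutrophil list. The list of interferon receptors and signalling genes stood at 0.15, 0.06 and 0.06 against -0.04.

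The S phase list and the list of STAT5 targets had a positive rho with Ifitm1 in the BCR-ABL sets and one near 0 in the control. The S phase list ran with Ifitm1 at 0.31, 0.41 and 0.47 in the BCR-ABL sets, against 0.00 in the control, with the replicative helicase subunit Mcm2 at 0.33, 0.27, 0.48 and 0.20 and the ribonucleotide reductase subunit Rrm2 at 0.29, 0.40, 0.30 and -0.18. The list of STAT5 targets (8 genes scored), a pathway that BCR-ABL activates, stood at 0.59, 0.22 and 0.30 against -0.03. Of these, the kinase Pim1 stood at 0.24, 0.29 and 0.37 against 0.02. Gene by gene, 2 of the 8 STAT5 targets had a positive rho with Ifitm1 in all 4 sets, near the 22.7% of all 11956 genes compared. Their median rho was 0.12, against 0.05 for all genes, and 8 genes are too few to tell these apart. The G2/M list stood at 0.26, 0.14 and -0.05 against -0.03. After correction for the number of genes detected, the S phase list stood at 0.18, 0.33, 0.43 and 0.01. The STAT5 list then stood at 0.45, 0.17, 0.26 and -0.05, and the G2/M list at -0.18, -0.31, -0.34 and -0.10. The differences in rho between sets were not tested.

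**Figure D4:**
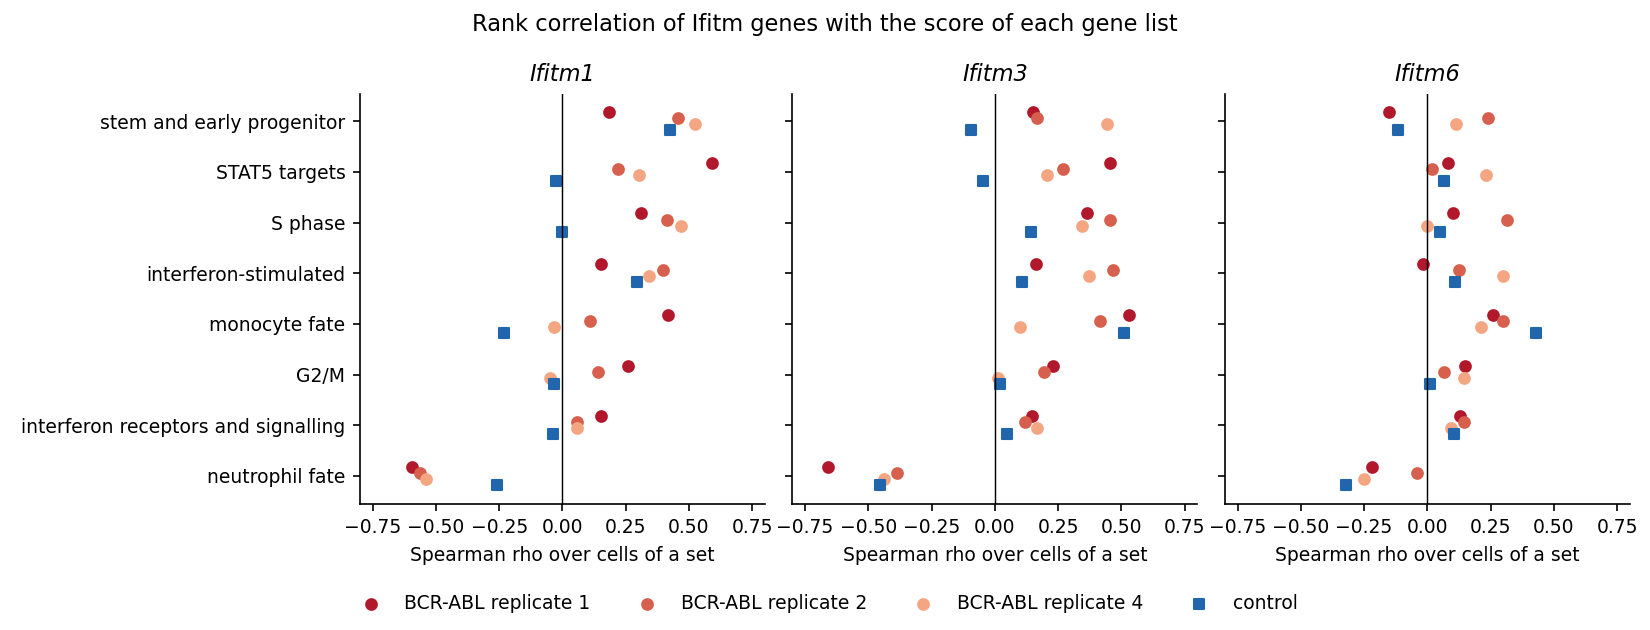
Spearman's rho over the cells of a set between an Ifitm gene and the mean score of each gene list, for Ifitm1, Ifitm3 and Ifitm6 (circles for the 3 BCR-ABL sets, squares for the control). All sets lie left of 0 for the neutrophil list, Ifitm1 lies right of 0 in all sets for the stem list and for the interferon-stimulated list, and the monocyte list lies right of 0 in all sets for Ifitm3 and Ifitm6 only.

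The levels of those lists in the summed cells went in different directions, beside 54.2% of all genes tested with a positive log2 fold change. Of 47 interferon-stimulated genes tested, 0 passed an adjusted p of 0.05, 12 had a positive and 35 a negative log2 fold change, and the median was -0.50, against 0.05 over all 20324 genes. At an unadjusted p under 0.05, 0 of them were higher and 11 lower, beside 3.79% and 3.39% of all genes. Irf9 stood at 25.2, 28.3 and 20.9 CPM across the BCR-ABL sets, against 65.04 in the control, and Bst2, the tethering factor tetherin, at 56.5, 74.4 and 51.4 against 97.7. For both genes all 3 BCR-ABL sets lay below the control, as they did for 27.8% of all genes tested. The antiviral GTPase Mx1 had 0 reads in replicates 2 and 4 and 6.31 CPM in the control. Irf7, the amplifier of the interferon response, was sparse at 1.38, 3.59 and 1.01 against 2.76 CPM, with sets on both sides of the control.

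For the counts that follow, 54.2% of all 20324 genes tested had a positive log2 fold change, with a median of 0.05. Of 13 interferon receptor and signalling genes, 5 had a positive and 8 a negative log2 fold change, with a median of -0.14. Ifnar2, a chain of the type I interferon receptor, stood at 131, 143 and 121 CPM against 221, whereas Ifngr1, a chain of the interferon gamma receptor, stood at 1142, 852 and 1597 CPM against 659 and ran against Ifitm1 over cells (-0.49, -0.41, -0.31 and -0.18). Stem and early progenitor genes were split, with 14 positive and 18 negative of 32 and a median of -0.12. Cd34 stood at 146, 180 and 158 CPM against 440 and Prom1 at 81.2, 61.2 and 100.2 against 13.7, each opposite in direction to its relation with Ifitm1 over cells. All 21 neutrophil genes tested had a positive log2 fold change, the same sign as Ifitm1 (median 1.09), and all 18 monocyte genes a negative one (median -1.30). Of 12 STAT5 targets 8 were positive and 4 negative (median 0.12), of 20 S phase genes 7 and 13 (median -0.13), and of 20 G2/M genes 9 and 11 (median -0.05). None of these passed the test at an adjusted p of 0.05.

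The other Ifitm genes and the neighbours of the cluster were read from the same sums. Ifitm5 stood at 0.539, 0.544 and 1.81 CPM across the BCR-ABL sets, against 0.365 in the control. All 3 sets lay above the control, as they did for 23.2% of all genes tested. Its reads came from 3, 1 and 11 BCR-ABL cells and 3 control cells, at under 2 CPM in every set. Ifitm10 was nearly absent, with 0, 27 and 2 reads against 6. Ifitm7, which lies on chromosome 16, stood at 11.7, 3.76 and 15.8 CPM against 6.74, with sets on both sides of the control. Pgghg, a glycosidase gene beside Ifitm5, stood at 28.2, 25.1 and 20.5 CPM against 33.4. On the other flank B4galnt4, a glycosyltransferase gene, stood at 0.872, 1.11 and 0.837 CPM against 0.243, and Gm17387 had 0 reads. B4galnt4 too was under 2 CPM in every set, with all 3 BCR-ABL sets above the control. Over cells, the rho of Ifitm5, Ifitm7, Pgghg and B4galnt4 with Ifitm1 lay between -0.29 and 0.26 in every set. The lowest were those of Ifitm7, at -0.29 and -0.25 in replicates 1 and 4. Of 6 scored genes whose products bind or modify IFITM proteins, 0 had a positive rho with Ifitm1 in all 4 sets, against 22.7% of all genes compared, a difference that 6 genes are too few to show. Among them, the tetraspanin Cd81 stood at -0.51, -0.45, -0.14 and 0.10, and Nedd4, the ubiquitin ligase that marks IFITM3 for turnover, at -0.42, -0.18, 0.04 and 0.32.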

How the data were processed

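Raw counts of reads per Ensembl gene were used as the authors deposited them. Per the submitters' processing notes the mm10 build, GSNAP and HTSeq 0.5.3p3 lie behind them. The strand setting and the annotation release are not given in the sources used. GENCODE vM21 gave symbols for 45143 of 46078 gene rows. Totals exclude 92 spike-in and 5 summary rows. Kept cells had 50434 to 4758711 reads.

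Counts summed per set were fitted with edgeR 4.0.16 (TMM, filterByExpr, Benjamini-Hochberg; R 4.3.3). The control, being 1 set, gets its spread from the BCR-ABL sets, and p-values measure only the spread between sets. All 4 members passed the filter. Shares, rho and states used cells thinned to 674952 reads, without 33 shallower cells. List scores average z-scores of log2(CPM + 1) over genes read in at least 10% of cells of each set; likeness needed 25%. Named genes were members, other Ifitm genes, 2 neighbours per side, up to 4 genes per list by rho to Ifitm1 and 3 by p, 9 fixed genes and the 8 most like each member. Least-like genes, Gm7676, Gm45717, Mpo and Ly6a were added after values were seen. Members and lists were chosen with earlier results of these data known. Scripts were tested on simulated data. No doublet caller was run.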

Additional observations from a re-analysis of the deposited data

Results flagged for a closer look

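Ifitm6 had opposite signs in cells of different fate state at a limit of 10 reads for Irf8 and Gfi1. In cells with both Irf8 and Gfi1 the mean log2 ratio of BCR-ABL to control (CPM + 1) was 0.21, with all 3 BCR-ABL sets above the control, and in cells with Irf8 alone it was -1.98, with both BCR-ABL sets that had such cells below it. The difference between the states was not tested, and few cells carry it: 2, 6 and 2 positive cells with both regulators in the BCR-ABL sets against 6 in the control, and 2 and 1 with Irf8 alone against 20. The opposite sign was lost at a limit of 30 reads, where the log2 ratio with both regulators was -0.07 in the only BCR-ABL set with enough cells (8.59 against 9.05 CPM), and -1.31 with Irf8 alone. It was also lost without the highest cell of each set, where the values were -0.17 and -2.62.

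Ifitm reads also lay in the wells that the filter left out, in part above the level of the 2 control wells left out. Ifitm1 stood at 882 CPM in 20 such wells of BCR-ABL replicate 1 (261 reads of 296077), at 87.9 CPM in 35 wells of replicate 2 (21 reads) and at 108 CPM in 4 wells of replicate 4 (6 reads), against 31.02 CPM (1 read) in the control wells. Ifitm3 stood at 304 CPM in replicate 1 (90 reads), 75.3 CPM in replicate 2 (18 reads) and 17.96 CPM in replicate 4 (1 read), against 31.02 CPM (1 read). Ifitm2 stood above the control wells (434 CPM, 14 reads) in replicate 4, at 539 CPM (30 reads), and below them in replicates 1 and 2, at 105 CPM (31 reads) and 179.97 CPM (43 reads). These wells hold few reads and serve no comparison.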

How the results depend on the processing

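With DESeq2 557 genes passed an adjusted p of 0.05; under edgeR none did, with TMM or RLE factors, with or without the count filter, in all wells, in deep wells, in thinned cells, with cells weighted equally, or without any 1 BCR-ABL replicate (0 to 0). The cause was not tested. The log2 fold change of Ifitm1 was 1.97 in thinned cells, where each cell carries the same weight, and 2.27 to 2.68 when 1 BCR-ABL replicate was left out. The same ranges were -0.06 to 0.00 for Ifitm2, -0.51 to -0.02 for Ifitm3 and -1.70 to -1.07 for Ifitm6. The share of Ifitm1-positive cells exceeded the control by 20.7 points at 10 thinned reads, but by 7.22 points at 1 read, by 8.13 points without thinning and by 30.7 points at 50 reads; at 1 read and without thinning replicate 4 lay below the control. Under the alternatives, 49 mean rho values of Ifitm1 moved by less than the SD over the 4 sets and 3 by more. Those 3 came from a correction for the number of genes detected, added after the data were seen: the mean rho was 0.15 for interferon-stimulated genes, -0.06 for interferon receptors and -0.23 for the G2/M list (0.08 without it). No paired analysis was possible because the BCR-ABL and control sets share fewer than 2 replicate numbers. With 1 control set, the spread between control sets was not measured.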
